A study of Mus musculus with 20 samples.

Results

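The Zbtb genes encode transcription factors that join a BTB domain to DNA-binding zinc fingers, and their RNA was followed here in liver and white adipose tissue (WAT) of mice without normal Rora. Members were all array probes whose gene name begins with Zbtb and a number and whose spot was well above background on 4 or more of the 10 arrays of a tissue. They were thus chosen by the scanner's detection flags, which depend on the measured brightness, and not by a difference between genotypes. Of 50 such probes on the array, 49 met the rule, for 28 genes, out of 41174 probes in all. The rule kept 42 probes of 27 genes in liver and 49 probes of 28 genes in WAT, and 39 probes were well above background on all 20 arrays. At the edge of the rule, a Zbtb40 probe (A_51_P407709) was well above background on 5 liver arrays and was kept there, while another (A_52_P162659) reached 3 and was not. The probe left out in both tissues, Zbtb7a A_52_P801875, was well above background on 1 liver array and 0 WAT arrays. Zbtb8os came in by its name alone, since it encodes the tRNA ligase cofactor archease and lies beside Zbtb8 on the opposite strand.

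The groups were RORasg/sg WAT, WT WAT, RORasg/sg liver and WT liver, with 5 samples from male mice in each and 1 array per sample. The labels number the samples 1 to 5 without saying that each is a separate mouse, so p-values measure the spread between these samples, part of which may be technical. RORasg/sg mice, written sg/sg below, carry the staggerer allele in both copies, a natural deletion within Rora, the gene of the nuclear receptor RORalpha. The deletion is present in every cell of the animal, and staggerer mice are also known for ataxia, so the tissues come from animals that differ in more than these organs. All mice, WT included, were C57BL/6, 5 months old, and on a 35% fat diet kept up for 6 weeks. The labels do not name the fat depot or say whether the genotypes were littermates.

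In a BTB zinc finger protein, the BTB domain (also called POZ) pairs proteins with each other and recruits corepressor complexes with histone deacetylases, or the Cul3 ubiquitin ligase, while the zinc fingers choose the DNA sequence. Most members act as repressors. Several are known for lineage choice in lymphocytes, for reading methylated DNA, or for control of lipid and glucose genes in liver and fat. RORalpha activates its targets through the sequence AGGTCA preceded by a short AT-rich stretch.

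Levels are given as log2 of the processed intensity minus the 75th percentile of its array, so 0 is the brightness of that percentile, and levels of different probes are not comparable. A change is the sg/sg mean minus the WT mean on that scale, with its standard error. A probe was called when limma's Benjamini-Hochberg adjusted p over all probes tested in the comparison was under 0.05. The 75th percentile intensity lay between 1254 and 1923 on sg/sg WAT arrays and between 1808 and 2436 on WT WAT arrays. In liver it lay between 621 and 856 on sg/sg arrays and between 787 and 1037 on WT arrays. The WAT array of sg/sg replicate 4 stood apart, with the lowest percentile of its group (1254) and 71.9% of probes well above background, against 75.1% to 80.3% on the other sg/sg WAT arrays. The 3 Rora probes were lower on every sg/sg array than on every WT array of the same tissue, by 2.72 to 2.75 in WAT and by 2.81 to 2.88 in liver on the log2 scale. In liver, Rora probe A_52_P652950 was not well above background on any sg/sg array. All 10 adipocyte markers were measured in WAT, and 9 of 10 hepatocyte markers were measured in liver.

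In WAT, 20 of the 49 Zbtb probes rose in sg/sg mice and 0 fell, and the 20 belong to 14 genes (Zbtb1, Zbtb4, Zbtb6, Zbtb7a, Zbtb7b, Zbtb8, Zbtb10, Zbtb11, Zbtb12, Zbtb20, Zbtb26, Zbtb37, Zbtb39 and Zbtb40). That is 40.8% of the members, where 12.7% of all 32315 probes tested in WAT rose and 9.17% fell. At an unadjusted p under 0.05, 28 Zbtb probes were higher and 0 lower. The called changes ran from 0.39 to 1.62 (1.31- to 3.08-fold), with a median of 0.55. Over all 49 probes the median change was 0.39 and 43 were positive, against a median of 0.076 and 58.2% positive over all probes tested. Every sg/sg array lay above every WT array for 19 of the 49 probes and below for 0, where 12.1% of all probes were separated upward and 8.67% downward. No member had passed the detection rule through 1 genotype alone, since each was well above background on at least 4 sg/sg and 5 WT WAT arrays. The mean level over the 49 probes lay between -1.65 and -1.54 on the 5 sg/sg WAT arrays and between -2.04 and -1.90 on the 5 WT WAT arrays.

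**Figure D1:**
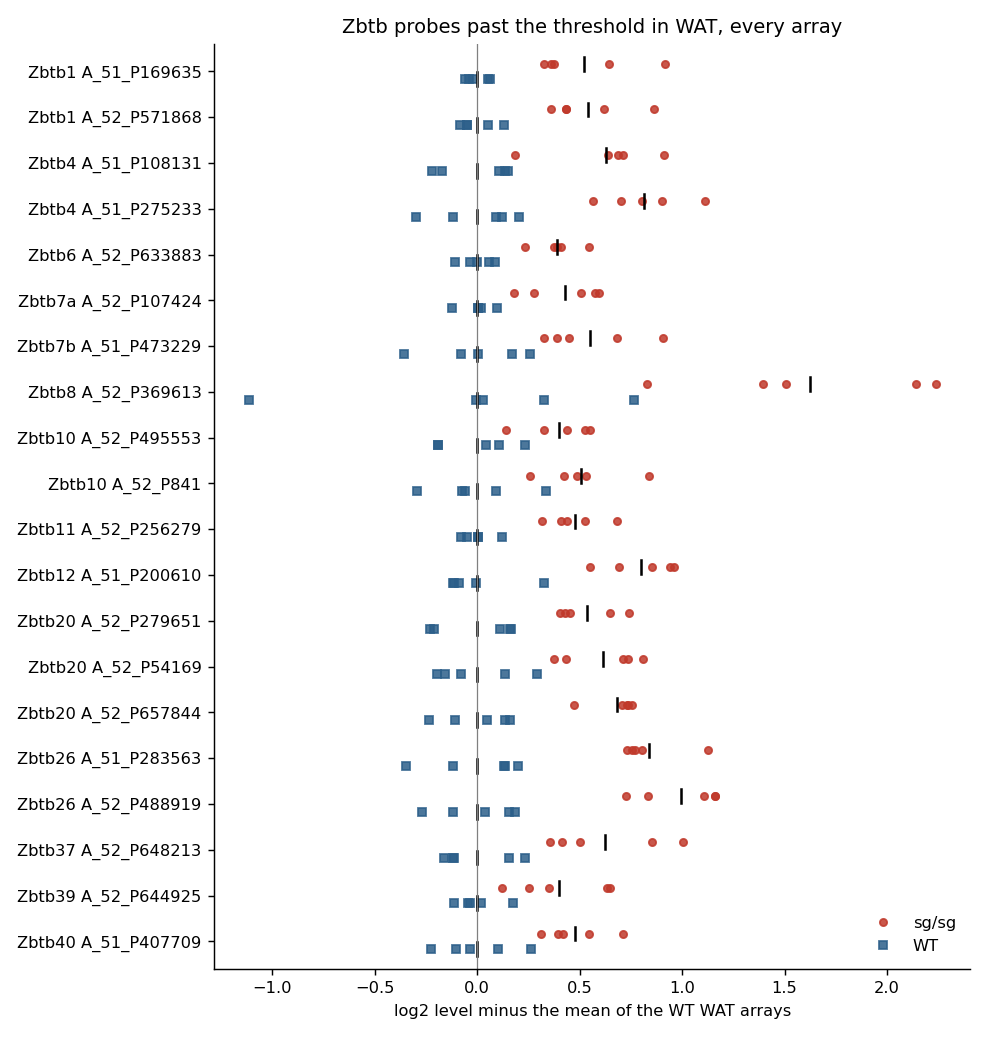
Each row is a called Zbtb probe in WAT, and each point an array: red circles are sg/sg mice, blue squares WT mice, and black ticks the group means. The x axis is the log2 level minus the WT mean of that probe. For 17 of the 20 probes the red and blue points do not overlap; the Zbtb10 probes and Zbtb39 are the exceptions.

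The WAT arrays of both genotypes were spread over 3 slides, and within a slide 41 of the 49 Zbtb probes were higher in sg/sg on slide 4, 41 on slide 5 and 40 on slide 6. Their median change was 0.45, 0.23 and 0.40 on these slides, against 0.095, 0.059 and 0.12 over all probes. The 20 called probes, which were chosen on these same arrays, were higher on each slide. With the slide as a block 17 of the 20 were called, where 18.7% of all probes were, and the Zbtb10 probes and Zbtb39 were not. Estimating background by the normexp model in place of the scanner's own subtraction left 1 call in WAT (Zbtb26 A_52_P488919), while 4.61% of all probes were called in either direction, against 21.9% before. That setting moved the median change of all probes to 0.47, beside 0.54 for the Zbtb probes, a shift that itself favours a positive sign. The changes of Zbtb7b, Zbtb7a A_52_P107424, Zbtb20 A_52_P279651 and Zbtb4 A_51_P108131 (0.37 to 0.44) lay under that median of all probes. All 20 changes kept their sign, at 0.37 to 1.71. Of these, 10 grew by over 1.5 times with wider errors (Zbtb1 A_52_P571868, both Zbtb10 probes, Zbtb20 A_52_P54169, Zbtb26 A_51_P283563, and the probes of Zbtb6, Zbtb11, Zbtb37, Zbtb39 and Zbtb40). With sg/sg WAT replicate 4 left out as well, a choice made after the data were seen, the normexp setting called 15 Zbtb probes, all higher, of which 13 were among the 20, beside 16.8% of all probes.

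Among the factors that bind methylated DNA, Zbtb4 rose in WAT on both of its probes. Its probe A_51_P275233 (chr11:69862705-69862764 in mm7, the mouse build of the array design) read 3.74, 3.51, 3.64, 4.06 and 3.84 in sg/sg WAT, against 2.64, 2.82, 3.03, 3.14 and 3.06 in WT WAT. All sg/sg arrays were above all WT arrays, by 0.82 ± 0.14 log2 (1.76-fold, adjusted p = 0.00293). The second Zbtb4 probe, A_51_P108131 (chr11:69863427-69863486), read 4.08, 4.10, 4.03, 3.57 and 4.30 in sg/sg WAT, against 3.21, 3.17, 3.49, 3.54 and 3.52 in WT WAT. The groups did not overlap there either, though sg/sg replicate 4 came within a small margin of the highest WT array, and the change was 0.63 ± 0.15 (adjusted p = 0.0136). The related Kaiso gene Zbtb33 did not pass, with changes of 0.014 ± 0.11 and 0.039 ± 0.12 on its probes, nor did Zbtb38 (0.02 ± 0.15). The probes report these stretches (first 30 of 60 bases, in lower case, with no part marked):
Zbtb4 A_51_P275233: cctgagtgaagaatttcctactgaatgtac
Zbtb4 A_51_P108131: tagtgaggacccagatttagagaatctgac

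Zbtb20, a repressor that silences alpha-fetoprotein in the adult liver, rose in WAT on all 3 of its probes. The probes lie at separate positions on the plus strand of chromosome 16. Probe A_52_P657844 (chr16:43387764-43387823) read 3.61, 3.59, 3.64, 3.62 and 3.35 in sg/sg WAT, against 2.77, 2.64, 3.04, 2.93 and 3.01 in WT WAT. Every sg/sg array was above every WT array, and the change was 0.68 ± 0.11 (1.60-fold, adjusted p = 0.00245). Probe A_52_P54169 read -3.21, -3.55, -3.11, -3.19 and -3.49 in sg/sg WAT, against -4.00, -4.08, -3.63, -4.12 and -3.79 in WT WAT. The groups were again apart (0.61 ± 0.13, adjusted p = 0.0102). Probe A_52_P279651 read 1.47, 1.23, 1.56, 1.25 and 1.27 in sg/sg WAT, against 0.61, 0.59, 0.93, 0.98 and 0.98 in WT WAT. The sg/sg values lay wholly above the WT values there too (0.54 ± 0.12, adjusted p = 0.0124). Their first 30 bases differ, and the array design names Zbtb20 for all 3:
Zbtb20 A_52_P657844: atgggtagggtccgcagactttcttttgag
Zbtb20 A_52_P54169: gcacaaagctatagataaagttattcttat
Zbtb20 A_52_P279651: aagaaatgttttggtttcctttttactttc

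The Zbtb7 subfamily gave a mixed picture. Zbtb7b, known as ThPOK for its part in CD4 T cell commitment and also as a driver of brown and beige fat programs, read 1.88, 2.18, 1.82, 2.40 and 1.94 in sg/sg WAT, against 1.5, 1.14, 1.67, 1.75 and 1.42 in WT WAT on A_51_P473229. All sg/sg arrays exceeded all WT arrays, with a change of 0.55 ± 0.15 (adjusted p = 0.0275), and 4 of the 10 fits that left out an array lost the call. Zbtb7a, the repressor LRF, read -0.037, 0.38, 0.065, 0.36 and 0.29 in sg/sg WAT, against -0.34, -0.12, -0.21, -0.20 and -0.21 in WT WAT on A_52_P107424. The groups were apart by a narrow margin (0.43 ± 0.11, adjusted p = 0.0191), and the call was lost without WT WAT replicate 1. A second Zbtb7a probe stayed under the threshold at 0.24 ± 0.13. Both Zbtb7c probes did too, at 0.18 ± 0.12 and 0.13 ± 0.33.

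Of the members named for lymphocytes, Zbtb1, which T cell and NK cell development needs, rose in WAT. Probe A_52_P571868 read -2.09, -1.67, -2.17, -1.91 and -2.09 in sg/sg WAT, against -2.57, -2.61, -2.58, -2.40 and -2.47 in WT WAT, and probe A_51_P169635 read -0.34, -0.072, -0.39, 0.20 and -0.36 in sg/sg WAT, against -0.77, -0.75, -0.66, -0.73 and -0.65 in WT WAT. On both the sg/sg arrays were all above the WT arrays, with sg/sg replicates 2 and 4 the highest, and the changes were 0.54 ± 0.11 and 0.52 ± 0.13 (adjusted p = 0.00840 and 0.0151). Another Zbtb1 probe had a like change with a wider error (0.50 ± 0.28) and was not called. Zbtb32, a repressor of T cell activation, had the lowest change of the family in WAT. It read -3.48, -3.54, -3.51, -2.22 and -3.50 in sg/sg WAT, against -2.59, -2.95, -3.01, -2.76 and -2.95 in WT WAT. Of the sg/sg arrays, 4 lay below all WT arrays and replicate 4 above them, and the change of -0.40 ± 0.25 was not called (adjusted p = 0.284). Without sg/sg replicate 4 it was called lower, at -0.66 ± 0.097 (adjusted p = 0.00221).

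Zbtb26 gave the change with the smallest p of the family in WAT, and few functions of this gene are known. Probe A_52_P488919 (chr2:37439500-37439559) read -0.039, 0.29, 0.24, 0.29 and -0.15 in sg/sg WAT, against -1.14, -0.99, -0.71, -0.83 and -0.68 in WT WAT. The distance between the groups exceeded the spread within either, and the change was 1.0 ± 0.13 (2.0-fold, adjusted p = 0.00130). Probe A_51_P283563 (chr2:37442389-37442448) read -4.43, -4.46, -4.50, -4.11 and -4.48 in sg/sg WAT, against -5.58, -5.35, -5.03, -5.10 and -5.10 in WT WAT, with the sg/sg arrays again all above the WT arrays. Its change was 0.84 ± 0.13 (1.79-fold, adjusted p = 0.00236). Zbtb6 lies next to Zbtb26 on the minus strand of chromosome 2, the nearest probes of the genes being 3461 bases apart. Zbtb6 A_52_P633883 read -4.20, -3.88, -4.02, -4.05 and -4.04 in sg/sg WAT, against -4.46, -4.54, -4.37, -4.43 and -4.34 in WT WAT. It rose with no overlap (0.39 ± 0.09, adjusted p = 0.0126; 1.05 ± 0.55 with the normexp background, not called), and its other probe was at 0.28 ± 0.11, not called. The Zbtb26 probes begin as follows:
Zbtb26 A_52_P488919: ctaaatctgttgtatgttagacatacttga
Zbtb26 A_51_P283563: gtgtgtgggtttgtactttaaacactaact

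Zbtb8 and Zbtb12 had the other large changes in WAT. Zbtb8 (named Zbtb8b in RefSeq) was dim, and its probe A_52_P369613 read -4.22, -5.63, -4.32, -4.95 and -5.06 in sg/sg WAT, against -6.43, -5.69, -7.57, -6.46 and -6.13 in WT WAT. The groups did not overlap, although sg/sg replicate 2 and WT replicate 2 were close, and the change of 1.62 ± 0.37 (3.08-fold, adjusted p = 0.0117) carried the widest error of the family. In liver this probe was well above background on 0 arrays. Zbtb8os, across the strand, was at 0.0048 ± 0.18 and -0.064 ± 0.11 in WAT. Zbtb12, a gene of the major histocompatibility region of chromosome 17, read 1.47, 1.74, 1.71, 1.63 and 1.33 in sg/sg WAT, against 0.69, 1.10, 0.77, 0.66 and 0.66 in WT WAT on A_51_P200610. Even the highest WT array, replicate 2, was below the lowest sg/sg array, and the change was 0.80 ± 0.12 (1.74-fold, adjusted p = 0.00222).

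The remaining called members changed by 0.40 to 0.63 in WAT. Zbtb37 A_52_P648213 read -3.47, -3.97, -4.12, -3.62 and -4.06 in sg/sg WAT, against -4.59, -4.60, -4.64, -4.24 and -4.32 in WT WAT. Zbtb11 A_52_P256279, for a gene needed for mitochondrial function, read -2.08, -1.97, -2.18, -1.81 and -2.05 in sg/sg WAT, against -2.49, -2.54, -2.49, -2.57 and -2.37 in WT WAT. Zbtb40 A_51_P407709 read -5.25, -5.02, -4.85, -5.16 and -5.14 in sg/sg WAT, against -5.79, -5.59, -5.66, -5.46 and -5.30 in WT WAT. On these 3 probes the genotypes did not overlap, and the changes were 0.63 ± 0.15, 0.48 ± 0.10 and 0.48 ± 0.12 (adjusted p = 0.0161, 0.00684 and 0.0188). The other WAT probes of these genes were not called. They were at 0.52 ± 0.18 for Zbtb37, 0.43 ± 0.16 and 0.58 ± 0.23 for Zbtb11, and 0.34 ± 0.12 and 0.24 ± 0.23 for Zbtb40. Zbtb10, which represses Sp factors, read -2.29, -2.41, -2.70, -2.32 and -2.52 in sg/sg WAT, against -3.03, -3.03, -2.74, -2.61 and -2.80 in WT WAT on A_52_P495553. Its probe A_52_P841 read -4.85, -5.43, -5.26, -5.20 and -5.16 in sg/sg WAT, against -5.75, -5.98, -5.76, -5.59 and -5.35 in WT WAT. Zbtb39 A_52_P644925 read -2.12, -2.51, -2.42, -2.13 and -2.65 in sg/sg WAT, against -2.88, -2.75, -2.80, -2.81 and -2.59 in WT WAT. In these 3 probes the lowest sg/sg array fell within the WT range, the changes were 0.40 ± 0.12, 0.51 ± 0.14 and 0.40 ± 0.12 (adjusted p = 0.0420, 0.0305 and 0.0437), and each call held in 3 of the 10 fits that left out an array. A further Zbtb10 probe, A_52_P325161, was not called at 0.36 ± 0.14. The 29 probes not called ranged from -0.40 to 0.58, and 14 genes had no call in WAT: Zbtb3, Zbtb5, Zbtb7c, Zbtb8os, Zbtb9, Zbtb17, Zbtb22, Zbtb24, Zbtb25, Zbtb32, Zbtb33, Zbtb34, Zbtb38 and Zbtb41. Zbtb5, a repressor of the cell cycle inhibitor p21, was at -0.18 and -0.057, and Zbtb41 at -0.19. Probes detected in WAT and not in liver numbered 7, of Zbtb1, Zbtb7c, Zbtb8, Zbtb10, Zbtb33, Zbtb37 and Zbtb40, and those of Zbtb8 and Zbtb10 were called. Leaving out sg/sg replicate 4 kept all 20 calls and added 9, of which Zbtb32 was the lower one, while 30.9% of all probes were called in either direction, against 21.9% with all arrays.

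In bulk tissue, fewer cells of a type and less RNA per cell cannot be told apart, and markers of several cell types moved with genotype in WAT. Here and for the gene lists below 1 probe stands for a gene, and 13.7% of all genes so measured rose in WAT and 9.31% fell. Of the 10 adipocyte markers, 5 rose (Pparg, Pnpla2, Plin1, Cfd and Adipoq) and Lep fell. Their summed level, on the linear scale in units of the array's 75th percentile, was 1200 to 1644 in sg/sg WAT and 728 to 1132 in WT WAT. Of 12 macrophage markers measured, 7 fell and 0 rose, with sums of 174 to 235 in sg/sg WAT and 219 to 306 in WT WAT. Of 6 dendritic cell markers 4 fell (sums of 2.2 to 3.80 in sg/sg WAT and 7.85 to 17.3 in WT WAT). Of 7 fibroblast markers 4 fell and 1 rose (268 to 345 in sg/sg WAT and 321 to 402 in WT WAT). Of 6 mesothelial markers 4 rose (24.0 to 38.0 in sg/sg WAT and 7.17 to 30.7 in WT WAT). No marker of T and NK cells, B cells, endothelium, stellate cells and pericytes, skeletal muscle or hepatocytes was called in WAT. The part of these cell types in the Zbtb changes was not tested.

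In liver, 8 of the 42 Zbtb probes rose in sg/sg mice and 0 fell, for 7 genes (Zbtb7c, Zbtb17, Zbtb22, Zbtb24, Zbtb26, Zbtb33 and Zbtb40). That is 19% of the members, beside 8.62% of all 24675 probes tested in liver that rose and 6.42% that fell. At an unadjusted p under 0.05, 11 Zbtb probes differed, all of them higher except Zbtb25. The called changes ran from 0.23 to 0.57 (1.17- to 1.49-fold). The median over the 42 probes was 0.083, against 0.041 over all probes, and with median scaling in place of the 75th percentile it was -0.029 against -0.072. With median scaling 18 of the 42 changes were positive, against 29 with the 75th percentile. Of the 8 calls 3 remained, while 12.8% of all probes were called, against 15%. The 34 probes not called lay between -0.52 and 0.38. Genotypes were separated upward for 7 probes and downward for 0, where 6.99% and 5.35% of all probes were.

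**Figure D2:**
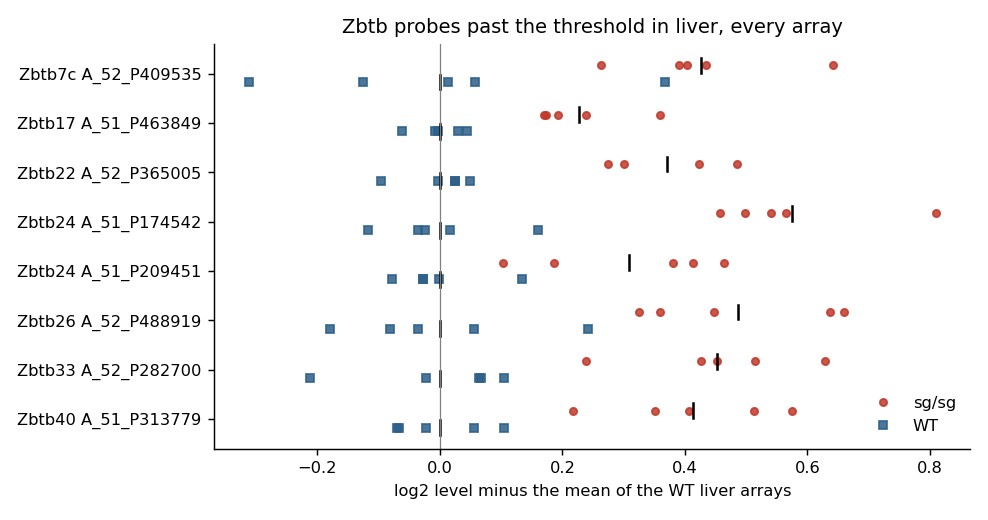
Rows are the 8 Zbtb probes called in liver, drawn as in the plot of called WAT probes: red circles are sg/sg arrays, blue squares WT arrays, black ticks group means, on the log2 scale relative to the WT mean. The points of Zbtb7c and of Zbtb24 A_51_P209451 overlap between genotypes, and those of the other 6 do not.

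Zbtb24, whose human counterpart is mutated in a syndrome of immunodeficiency with loss of centromeric DNA methylation, gave the smallest p in liver. Its probe A_51_P174542 (chr10:41275453-41275512) read -0.19, -0.28, -0.17, 0.077 and -0.24 in sg/sg liver, against -0.85, -0.77, -0.72, -0.76 and -0.57 in WT liver. All sg/sg arrays were above all WT arrays, by 0.57 ± 0.089 (1.49-fold, adjusted p = 0.00709). Zbtb24 A_51_P209451 read -0.77, -1.0, -1.08, -0.72 and -0.81 in sg/sg liver, against -1.26, -1.21, -1.19, -1.05 and -1.21 in WT liver, with sg/sg replicate 3 below the highest WT array. That change of 0.31 ± 0.09 was called at adjusted p = 0.0440 but in only 2 of the 10 fits that left out an array. The third Zbtb24 probe pointed down (-0.18 ± 0.12), and was called lower when WT liver replicate 5 was left out.

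Zbtb33, the gene of Kaiso, which binds methylated CpG pairs and the motif TCCTGCNA, read 1.41, 1.62, 1.60, 1.80 and 1.69 in sg/sg liver, against 1.24, 0.96, 1.15, 1.24 and 1.28 in WT liver on A_52_P282700. No sg/sg array was as low as the highest WT array (0.45 ± 0.095, adjusted p = 0.0165). Zbtb40 A_51_P313779 read 0.64, 1.0, 0.77, 0.93 and 0.83 in sg/sg liver, against 0.35, 0.40, 0.48, 0.35 and 0.53 in WT liver. The groups were apart there as well (0.41 ± 0.086, adjusted p = 0.0159). Zbtb26 A_52_P488919 read -0.49, -0.27, -0.61, -0.30 and -0.57 in sg/sg liver, against -0.69, -1.01, -1.11, -0.88 and -0.97 in WT liver. It rose by 0.49 ± 0.10 (adjusted p = 0.0179) and was the 1 probe called in both tissues.

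Zbtb22 A_52_P365005 read 0.079, 0.053, 0.20 and 0.26 in sg/sg liver, against -0.22, -0.20, -0.32, -0.20 and -0.17 in WT liver, with no value for sg/sg replicate 2, whose spot was an outlier. Every remaining sg/sg array exceeded the WT arrays (0.37 ± 0.08, adjusted p = 0.0198), and the call was lost without WT replicate 3 or WT replicate 4. Zbtb17 encodes Miz-1, the partner through which Myc represses genes, and its probe A_51_P463849 read 1.69, 1.62, 1.64, 1.62 and 1.81 in sg/sg liver, against 1.49, 1.39, 1.48, 1.44 and 1.44 in WT liver. The groups were apart, but at 0.23 ± 0.068 and adjusted p = 0.0488 the call was lost whichever of the 10 arrays was left out. Zbtb7c A_52_P409535 read 5.55, 5.80, 5.59, 5.42 and 5.56 in sg/sg liver, against 5.22, 4.85, 5.03, 5.17 and 5.53 in WT liver. WT replicate 5 reached the sg/sg range, and the change of 0.43 ± 0.13 (adjusted p = 0.0459) held in 1 of the 10 such fits.

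Slides limit the liver result. Liver slide 1 held 4 WT arrays, slide 3 held 2 sg/sg arrays, and slide 2 alone held both genotypes, with 3 sg/sg arrays and 1 WT array. Within slide 2, 32 of the 42 Zbtb probes were higher in sg/sg, with a median of 0.17 against 0.047 over all probes, and the 8 called probes, chosen with these arrays among others, were higher by 0.12 to 0.51. With its 1 WT array, limma called 0 of all 24675 probes there, and 1 Zbtb probe had an unadjusted p under 0.05. With the slide as a fixed block 3 of all 24675 probes were called (0.0122%), among them 0 Zbtb probes, of which 5 had an unadjusted p under 0.05. As a random block 5 Zbtb probes were called, beside 10.2% of all probes. Over the other liver slides together, where slide and genotype cannot be told apart, there were 4 calls, beside 6.57% of all probes. Cell type markers also moved in liver, where 9.25% of genes with 1 probe each rose and 6.63% fell. Of 11 macrophage markers 6 rose, with sums of 149 to 196 in sg/sg liver and 86.5 to 158 in WT liver. Of 8 endothelial markers 3 rose (19.1 to 22.6 in sg/sg liver and 13.6 to 18.3 in WT liver). Of 6 adipocyte markers 2 fell (20.9 to 24.7 in sg/sg liver and 24.9 to 71.3 in WT liver) with Adipoq, Lep, Plin1 and Retn not measured. Of the other marker lists in liver, hepatocytes, T and NK cells, B cells, mesothelium, stellate cells and pericytes, and skeletal muscle had 1 marker each that rose and 0 that fell, and dendritic cells and fibroblasts had 0 calls. The part of these cells in the liver changes of Zbtb genes was not tested.

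**Figure D3:**
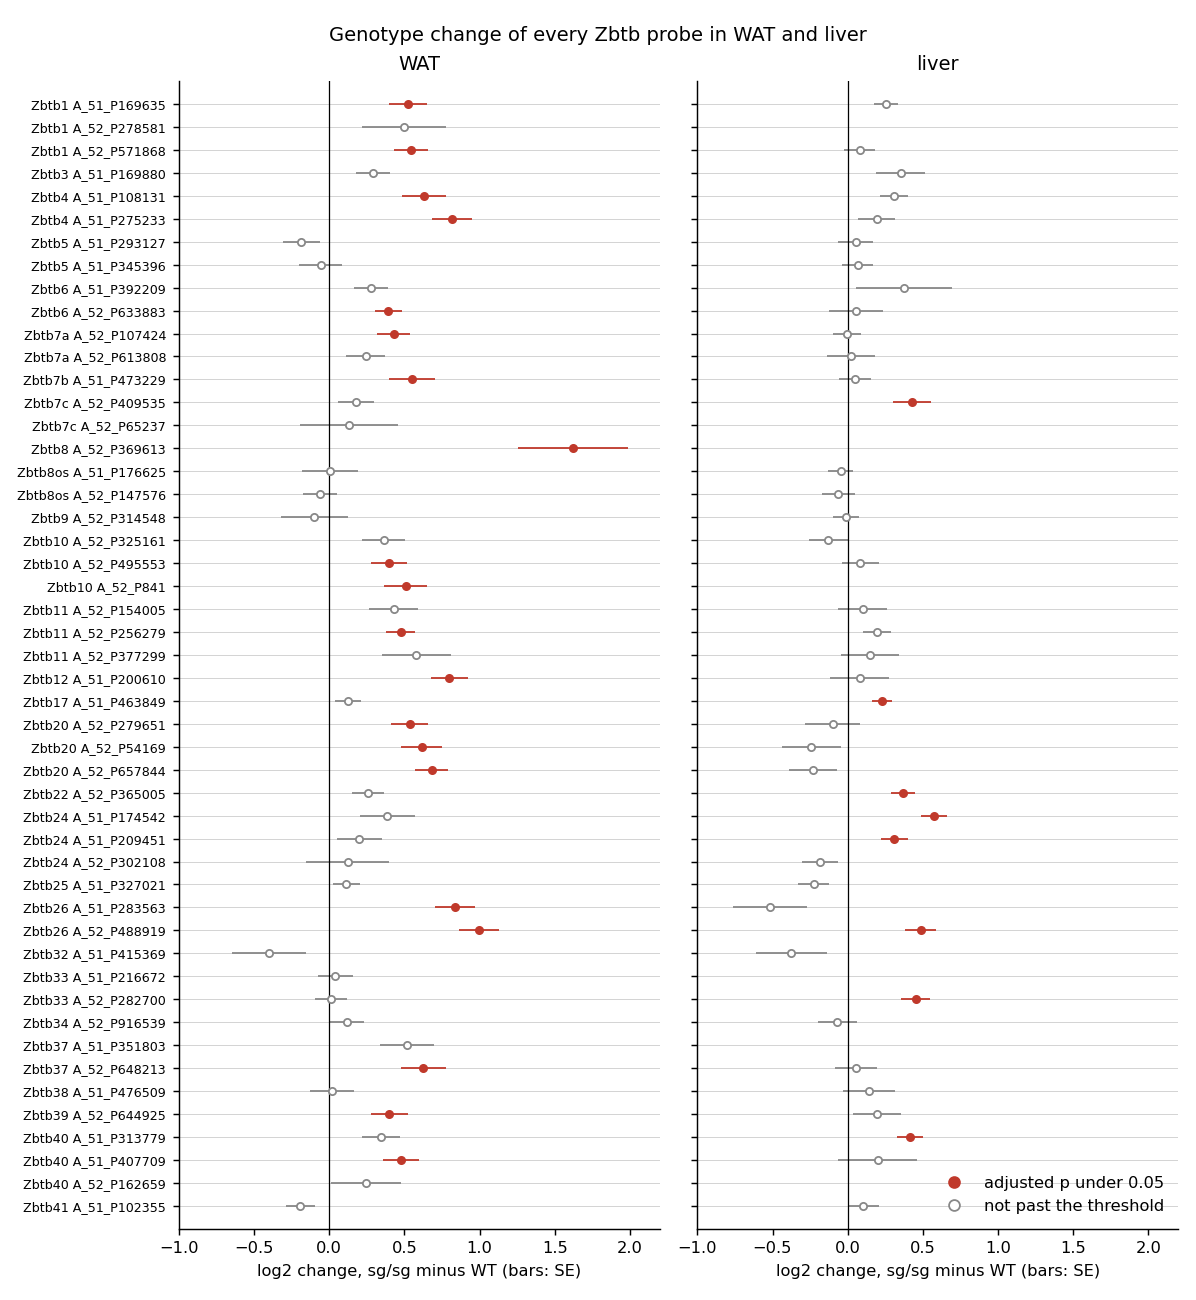
Every Zbtb probe kept in WAT is a row, with the log2 change (sg/sg minus WT, x axis) in WAT on the left and in liver on the right, and bars for the standard error. Filled red points passed the threshold (20 in WAT, 8 in liver), open grey points did not, and 7 rows have no liver point because the probe was too dim there.

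The genotype effect itself was compared between tissues in a model over all 20 arrays, for the 42 probes kept in both. For 8 of them the change was larger in WAT than in liver and for 1 it was smaller, where 10.3% of the 24344 probes tested were on the first side and 9.52% on the second (19.8% in all). The 8 are both Zbtb26 probes, Zbtb20 A_52_P657844 and A_52_P54169, Zbtb12, Zbtb4 A_51_P275233, Zbtb1 A_52_P571868 and Zbtb7a A_52_P107424. Of the 42, 17 were called in WAT and not in liver, 7 in liver and not in WAT, and 17 in neither. The same split was not made over all probes, of which 21.9% were called in WAT and 15% in liver. These counts therefore do not show whether the split is particular to the family.

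Zbtb26 A_51_P283563 had the largest difference in the family. In liver it read -4.52, -3.92, -3.55, -3.85 and -4.19 in sg/sg liver, against -3.22, -3.42, -3.77, -2.87 and -4.16 in WT liver. Those groups overlapped, with a change of -0.52 ± 0.25 that was not called, beside 0.84 in WAT, and the difference was 1.36 ± 0.29 (adjusted p = 0.00293). The difference held in all 20 fits that left out an array. With the normexp background it was 1.43 ± 0.58 and not called (adjusted p = 0.123). With the slide as a fixed block it was 0.67, not called either. For Zbtb26 A_52_P488919, higher in both tissues, the difference was 0.51 ± 0.17 (adjusted p = 0.0356), and it held in 11 of the 20 fits that left out an array.

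Zbtb20 A_52_P657844 read 3.96, 4.67, 4.35, 4.29 and 4.14 in sg/sg liver, against 4.52, 4.22, 4.95, 4.40 and 4.48 in WT liver. The liver groups overlapped (-0.23 ± 0.16, not called), and the WAT effect exceeded the liver effect by 0.91 ± 0.19 (adjusted p = 0.00268). For Zbtb20 A_52_P54169 the liver values were -2.82, -3.02, -3.54, -3.06 and -2.80 in sg/sg liver, against -2.27, -3.28, -2.82, -2.98 and -2.67 in WT liver. They overlapped too (-0.24 ± 0.19), and the difference was 0.86 ± 0.24 (adjusted p = 0.0177). The third Zbtb20 probe had a difference of 0.64 ± 0.22, just outside the threshold (adjusted p = 0.0513).

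Zbtb4 A_51_P275233 read 1.19, 1.44, 0.89, 0.77 and 1.22 in sg/sg liver, against 0.98, 0.86, 0.94, 0.99 and 0.79 in WT liver. Liver groups overlapped at 0.19 ± 0.12, and the difference was 0.62 ± 0.18 (adjusted p = 0.0221). On the other Zbtb4 probe, A_51_P108131, the liver change was 0.31 ± 0.095 (adjusted p = 0.0513) and the difference 0.32 ± 0.17, neither called (adjusted p = 0.202 for the difference). Zbtb12 read 1.38, 2.29, 1.43, 1.07 and 1.24 in sg/sg liver, against 1.34, 1.31, 1.39, 1.61 and 1.36 in WT liver. Here sg/sg replicate 2 alone was far above the rest, and the difference of 0.72 ± 0.24 (adjusted p = 0.0395) held in 7 of the 20 fits that left out an array. For Zbtb1 A_52_P571868 and Zbtb7a A_52_P107424, with liver changes of 0.081 and -0.0032, the differences were 0.46 ± 0.15 and 0.43 ± 0.14 (adjusted p = 0.0350 and 0.0312). Those held in 12 and 14 of the 20 fits. The other probes of these genes had differences of 0.27 ± 0.14 for Zbtb1 and 0.22 ± 0.21 for Zbtb7a, neither called (adjusted p = 0.198 and 0.482).

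Zbtb33 A_52_P282700 ran the other way, higher in sg/sg liver and level in WAT. Its WAT values were 0.17, 0.29, 0.55, 0.23 and 0.33 in sg/sg WAT, against 0.10, 0.47, 0.32, 0.36 and 0.25 in WT WAT. The WAT groups overlapped fully, and the effect in WAT minus that in liver was -0.44 ± 0.14 (adjusted p = 0.0302), which held in 14 of the 20 fits. With the slide as a fixed block, where 3.23% of all probes were called, 0 of the 42 differences were and 7 had an unadjusted p under 0.05, the liver part then resting on slide 2.

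**Figure D4:**
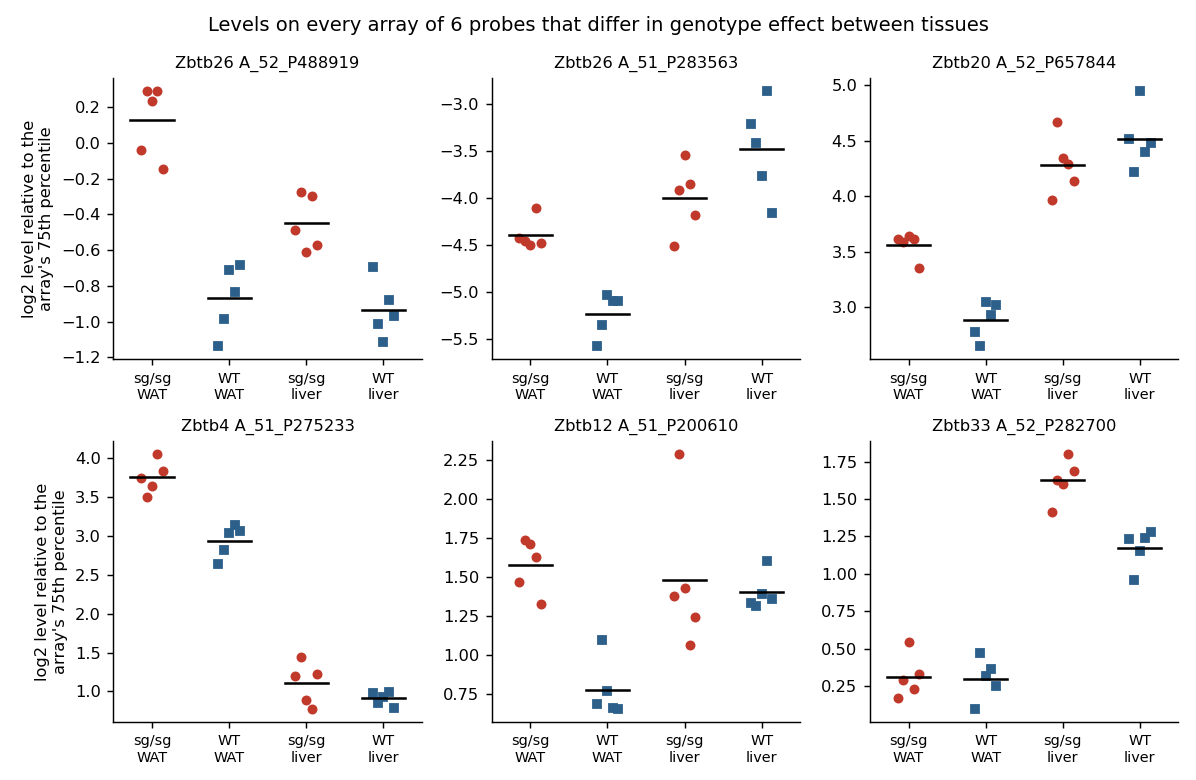
Each panel shows the log2 level (y axis, relative to the array's 75th percentile) of 1 probe on all 20 arrays, in the order sg/sg WAT, WT WAT, sg/sg liver and WT liver; bars are group means. In the first 5 panels the genotypes are apart in WAT, and in the Zbtb33 panel they are apart in liver and overlap in WAT; the first panel, of Zbtb26 A_52_P488919, shows no overlap in either tissue.

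Several genes were measured by more than 1 probe. In WAT, 14 of 15 genes with several kept probes had all changes on the same side of 0, and the widest spread within a gene was 0.26 (Zbtb24). The exception was Zbtb8os, near 0. In liver 8 of 12 such genes had a common sign. Zbtb26 spanned 1.0, between -0.52 and 0.49, and Zbtb24 spanned 0.76. Such probes lie at different positions of a gene, and which transcript each reports was not tested.

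Between the tissues of WT mice, levels are a description only, because WAT and liver arrays lay on different slides and scanners, so that tissue, slide and scanner cannot be told apart. Every WAT array was below every liver array for 20 of 42 probes and above for 12, where 42.7% of all probes were below and 29.4% above. Zbtb7c A_52_P409535 had the widest gap, at a mean of 1.65 in WT WAT and 5.16 in WT liver. The other Zbtb7c probe, A_52_P65237, went the opposite way, at -3.01 in WT WAT and -5.19 in WT liver. It was too dim in liver to be among the 42, being well above background on 2 WT liver arrays. The Zbtb7a probes also disagreed, with differences of -0.74 and 1.63 for WAT minus liver. The Zbtb20 probes were 0.99 to 1.63 lower in WAT. On the other side, Zbtb3 was at -1.69 in WT WAT and -4.50 in WT liver, and the Zbtb4 probes were 1.79 and 2.03 higher in WAT. With median scaling every difference was 0.20 lower, and 2 of the 42 changed sign. Rising in sg/sg WAT was seen on both sides: Zbtb20 was lower in WAT than in liver in WT mice, and Zbtb4 higher.

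**Figure D5:**
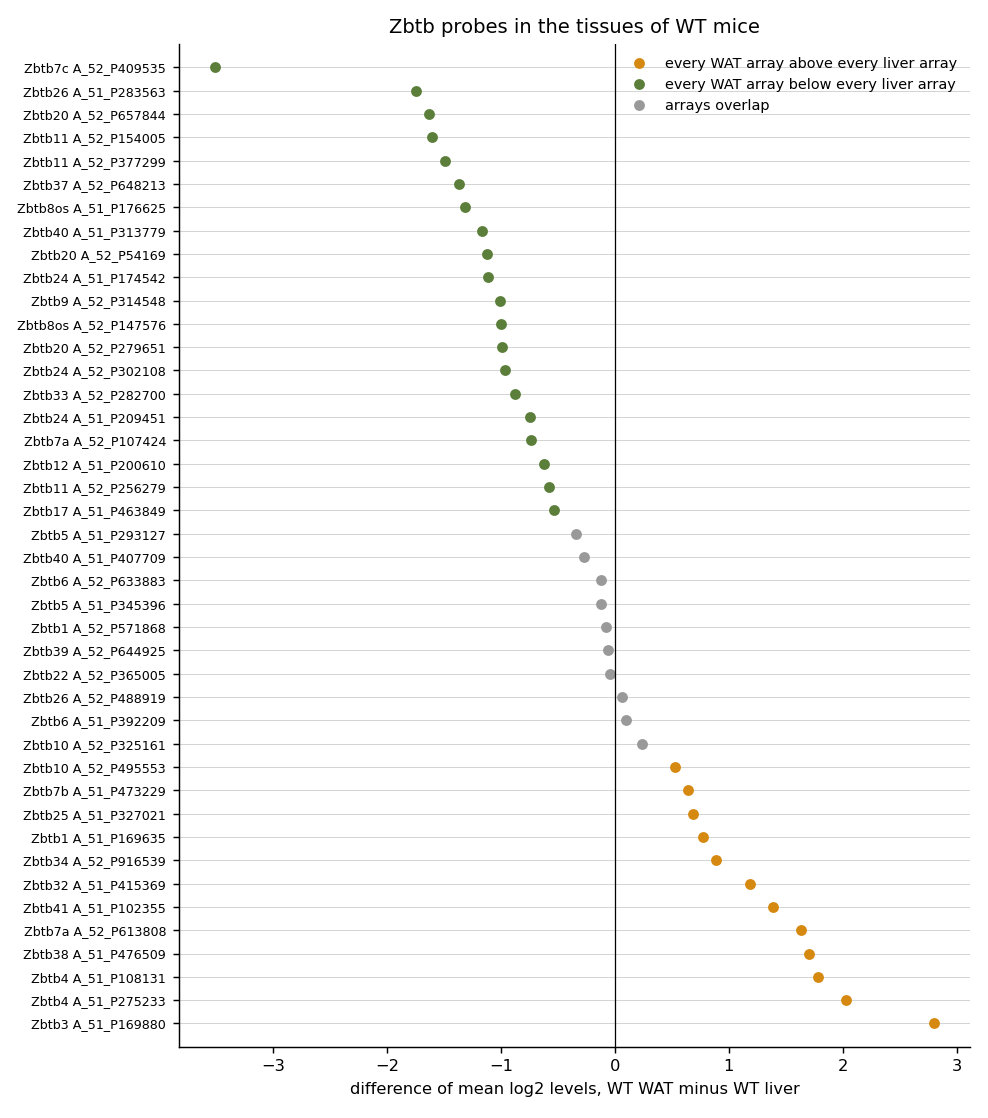
Points show, for each of 42 Zbtb probes, the mean log2 level in WT WAT minus that in WT liver (x axis), sorted from liver-high at the top to WAT-high at the bottom. Green points have every WAT array below every liver array (20 probes), orange points every WAT array above (12), and grey points overlap (10).

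Partner and target genes of the family were read from lists. Of 20 corepressor and partner genes, 4 rose in WAT and 0 fell, with a median of 0.18 against 0.088 over all genes. They were Bcorl1, a relative of the Bcl6 corepressor (0.54), the scaffold Sin3a (0.36), the deacetylase Hdac5 (0.35) and the remodeller Chd4 (0.27). At 20% beside 13.7%, the share was near the background. In liver 3 of these 20 rose (Hdac7 by 0.42, Hdac1 by 0.28 and the CtBP corepressor gene Ctbp2 by 0.38) and Hdac4 fell by 0.51. Of 17 BTB genes that serve as Cul3 adaptors without zinc fingers, 4 rose in WAT (Klhl2 by 1.15, Btbd2 by 0.44, Klhl21 by 0.32 and Klhl7 by 0.43). The median of the 17 was 0.043 in WAT and -0.063 in liver. In liver Kctd10 and Klhl2 rose by 0.47 and 0.35, and Klhl21 fell by 0.39.

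Of 12 genes that BTB zinc finger factors are known to control, Mlxipl rose in WAT by 1.17, and Ccl2, Afp and Ccnd1 fell by 2.60, 2.33 and 0.78. Mlxipl encodes the carbohydrate sensor ChREBP, Ccl2 a monocyte chemokine that Bcl6 represses, Afp the fetal protein silenced by Zbtb20, and Ccnd1 cyclin D1. In liver Lpl, for lipoprotein lipase, rose by 0.95 among the 11 measured, and Afp and Ccnd1 fell by 0.52 and 1.08. The median of the list was -0.34 in WAT and -0.010 in liver. The Zbtb20 probes were not called in liver. Of 12 glucocorticoid-induced genes, Pck1 rose by 0.90 and Mt2 fell by 1.04 in WAT, while in liver 3 rose (Sgk1 by 0.82, Tat by 0.88 and Tsc22d3 by 0.61). Their median was 0.11 in WAT, against 0.088 over all genes, and 0.21 in liver, against 0.049 over all genes.

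Promoters were examined because 14 genes of the family rose together in WAT. RefSeq start sites (GRCm38.p6) were found for 25 of the 28 genes, with 32 promoters, each taken as the 250 bases before the start. None was found for Zbtb7c, Zbtb10 and Zbtb40, of which Zbtb10 and Zbtb40 rose in WAT. Their median GC content was 63.6% and they held a median of 18.5 CpG pairs, against 52.4% and 6 over all 32851 promoters, whether or not the gene was detected here. The RORalpha core preceded by T, TAGGTCA, searched on both strands, was in 1 of the 32 promoters, that of Zbtb4 (3.13%), and in 2.23% of all promoters. The variant TGGGTCA was in 0 of the 32 and in 3.24% of all. The core AGGTCA (which TAGGTCA contains) was in 2 of the 32, of Zbtb4 and Zbtb25 (6.25%), and in 14% of all. The Kaiso motif TCCTGCNA was in 1 of the 32, that of Zbtb37 (3.13%), and in 4.03% of all. A match is a string of letters in this window and not a shown site. The Zbtb4 promoter is printed for its match, in capitals, which starts at position -216 from the gene start, and Zbtb12, Zbtb26 and Zbtb20 for their changes in WAT, with no match to mark. The Zbtb20 window had a GC content of 44.8% and 3 CpG pairs, against 67.6% and 22 in Zbtb12, 67.6% and 13 in Zbtb4, and 64.8% and 22 in Zbtb26. Positions are chr11:69765662-69765911, plus strand for Zbtb4, chr17:34894309-34894558, plus strand for Zbtb12, chr2:37443173-37443422, minus strand for Zbtb26 and chr16:43247034-43247283, plus strand for Zbtb20.
Zbtb4: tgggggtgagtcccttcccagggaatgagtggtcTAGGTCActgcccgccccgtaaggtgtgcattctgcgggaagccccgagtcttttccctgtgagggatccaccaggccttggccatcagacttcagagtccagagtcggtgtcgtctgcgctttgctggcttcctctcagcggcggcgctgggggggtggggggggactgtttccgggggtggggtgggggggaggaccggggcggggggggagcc
Zbtb12: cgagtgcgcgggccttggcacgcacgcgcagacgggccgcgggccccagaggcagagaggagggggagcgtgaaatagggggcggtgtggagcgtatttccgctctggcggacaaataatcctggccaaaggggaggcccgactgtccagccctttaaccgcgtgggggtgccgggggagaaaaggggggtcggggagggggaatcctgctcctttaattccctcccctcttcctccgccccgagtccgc
Zbtb26: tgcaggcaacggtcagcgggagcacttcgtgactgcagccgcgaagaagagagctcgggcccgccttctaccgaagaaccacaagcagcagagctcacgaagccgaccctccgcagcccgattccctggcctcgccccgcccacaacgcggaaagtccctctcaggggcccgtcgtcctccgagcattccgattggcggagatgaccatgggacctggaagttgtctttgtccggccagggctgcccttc
Zbtb20: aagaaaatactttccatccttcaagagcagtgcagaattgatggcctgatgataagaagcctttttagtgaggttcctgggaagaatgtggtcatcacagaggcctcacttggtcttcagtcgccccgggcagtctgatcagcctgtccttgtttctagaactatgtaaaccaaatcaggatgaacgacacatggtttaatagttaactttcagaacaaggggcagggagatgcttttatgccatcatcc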

How the data were processed

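Total RNA (500 ng) of 20 samples was labelled with Cy3 and hybridised to 1-colour Agilent mouse arrays, per the labels. The authors deposited scanner tables from Feature Extraction 9.5, per the submitters' processing notes, and the processed signal intensity used here is background-subtracted by that software, per the file headers. The deposited value table held the same values. From these, log2 intensity minus the array's 75th percentile was computed over non-control probes, outlier spots were left out, and the detection rule of the members, with at most 2 missing values, was applied to all probes. limma 3.58.1 in R 4.3.3 (lmFit and eBayes) compared 5 sg/sg with 5 WT arrays per tissue, and the genotype effects of the tissues over all 20 arrays, with Benjamini-Hochberg adjustment over all probes tested. The number of arrays limits the precision. No saturated spot touched a member. On simulated data 200 probes were changed, 100 for each size of shift. Shifts of 1 (log2) were recovered in 66% of liver, 43% of WAT and 45% of difference probes. For shifts of 0.5 the shares were 25%, 2% and 5%. In the data 3709 probes were called in liver, 7070 in WAT and 4814 for the difference. With so few changed probes the adjusted threshold is stricter, so these shares do not give the recovery in the data. Gene names are those of the array design, and 5 genes were added to the lists through accessions after the files were seen. Members and lists were chosen with earlier results of these data known. The fixed rule gave per-array values for Zbtb probes called in any comparison, and named the Rora probes, genes with several kept probes, probes kept in 1 tissue, and up to 4 genes of smallest p per list; its brightest and dimmest probes were left out because levels of different probes cannot be compared. Per-array values of Zbtb32, called in no comparison, were added after its values were seen. Those of Hic2 and Zbtb44, which the array lists under other names, also lie outside the rule. Same-numbered samples had deviations from their group means correlated between -0.14 and 0.17, with no comparison to differently numbered samples. These values cannot show whether replicate numbers pair the samples. The highest correlation between arrays of a group was 0.995, and no array was a copy of another. Alternatives are given in the closing section, and tables and figures were made with Python 3.11.15.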

Additional observations from a re-analysis of the deposited data

Results flagged for a closer look

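Of 107 groups of 5 arrays examined for 28 probes, 6 had an array far from the other 4, by Dixon's test at the 95% level. Chance flags about 1 in 20 groups. Of the 28 probes, 27 were called in a comparison. Zbtb32 was added to the screen after its values were seen, so its flag does not count against that rate. In sg/sg WAT, Zbtb40 A_51_P313779 was 0.024 on replicate 4 and -0.58 to -0.42 on the others (gap over range 0.734). Zbtb26 A_51_P283563 was -4.11 on replicate 4 and -4.50 to -4.43 on the others (0.825). Zbtb32 was -2.22 on replicate 4 and -3.54 to -3.48 on the others (0.953). Zbtb20 A_52_P657844 was 3.35 on replicate 5 and 3.59 to 3.64 on the others (0.824). Zbtb12 was 1.10 on WT WAT replicate 2 and 0.66 to 0.77 on the others (0.743), and 1.61 on WT liver replicate 4 and 1.31 to 1.39 on the others (0.724).

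The change in WAT differed from that in liver, by the test of the difference, for 9 probes. It was larger in WAT by 1.36 for Zbtb26 A_51_P283563, 0.91 for Zbtb20 A_52_P657844, 0.86 for Zbtb20 A_52_P54169, 0.72 for Zbtb12, 0.62 for Zbtb4 A_51_P275233, 0.51 for Zbtb26 A_52_P488919, 0.46 for Zbtb1 A_52_P571868 and 0.43 for Zbtb7a A_52_P107424. For Zbtb33 A_52_P282700 it was -0.44, larger in liver. Tissue, slide and scanner cannot be told apart in levels. Each genotype effect was taken within a tissue, but in liver only slide 2 held both genotypes, with 1 WT array. With the slide as a fixed block 0 of the 42 differences were called, where 3.23% of all probes were.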

How the results depend on the processing

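No named probe changed the sign of a call under any alternative run. In WAT the normexp background moved the median change of all probes to 0.47, which favours a kept sign there. With all arrays and the chosen settings the Zbtb calls were 20 in WAT, 8 in liver and 9 for the difference between tissues. The normexp background gave 1 in WAT and 3 for the difference (4.61% and 11.1% of all probes called, against 21.9% and 19.8%), and with sg/sg WAT replicate 4 also left out (added after the data were seen) 15 and 5 (16.8% and 20.7%). Median scaling gave 13 in WAT and 3 in liver (17.5% and 12.8% of all probes, against 21.9% and 15%). It turned the split of all probes called to 835 higher of 3150 in liver, against 2126 of 3709, and to 2888 of 4402 for the difference, against 2496 of 4814. Without the filter on dim probes there were 4 in liver and 4 for the difference (3.13% and 11% of all probes). With 1 probe per gene there were 12 in WAT and 5 for the difference, with fewer probes tested (23.8% and 21.4% of them called). The slide as a fixed block gave 0 in liver and 0 for the difference (0.0122% and 3.23% of all probes), and as a random block 5 in liver (10.2%). Slide 2 alone gave 0 and slides 1 and 3 gave 4 in liver, and slides 4, 5 and 6 alone gave 0 each in WAT, where 0 of all probes were called on any single slide, with 12, 7 and 7 probes at an unadjusted p under 0.05. The cause of these shifts was not tested, beyond the fewer samples on a slide. Leaving out 1 array gave 15 to 29 calls in WAT, 4 to 8 in liver and 5 to 12 for the difference. The share of all probes called then ran from 15.6% to 30.9% in WAT and from 4.96% to 16.8% in liver. For the difference it ran from 16.1% to 25.7%. In liver the count was 4 without WT replicate 3 or 4, and 5 without WT replicate 1 or 2 or sg/sg replicate 1, 4 or 5; for the difference it was 5 without sg/sg liver replicate 3 or 5, WT WAT replicate 1 or sg/sg WAT replicate 2. Without WT liver replicate 5, 6 of the 8 liver calls remained and Zbtb25 and Zbtb24 A_52_P302108 were called lower. The labels give the samples only a shared number, and a replicate block gave 11 calls in WAT, 3 in liver and 9 for the difference. Of all probes, 13.9%, 6.71% and 19.6% were called with that block, against 21.9%, 15% and 19.8% without it. Quantile normalization, a stricter detection filter, kept outlier spots and the value table moved no count by over 1.5 times.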

Other observations

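BTB zinc finger genes that the array lists under other names were read as well, with every probe of 17 genes. Patz1 and Gzf1, listed as Zfp278 and Zfp336, were not among the 17. In WAT 5 of the 30 probes of the 17 genes rose and 0 fell, beside 12.7% and 9.17% of all probes. Their median was 0.33, against 0.076 over all probes. In liver 2 of 26 rose and 2 fell, beside 8.62% and 6.42% of all probes, with a median of 0.078 against 0.041. These counts lie near the background, while the median in WAT lay above that of all probes. Patz1 and Gzf1 changed by 0.26 and 0.21 in liver, not called. With 1 probe per gene, 2 of the 14 genes in the list that holds them rose in WAT and 0 fell. Of all genes so measured, 13.7% rose in WAT and 9.31% fell. Hic2, a repressor related to the tumour suppressor Hic1, moved in opposite directions in the tissues. Its probe A_52_P234354 read -0.56, -0.68, -0.59, -0.50 and -0.77 in sg/sg WAT, against -1.29, -0.98, -1.13, -1.25 and -1.38 in WT WAT. The sg/sg WAT arrays were all above the WT arrays (0.59, adjusted p = 0.00375). In liver the same probe read -1.82, -1.70, -2.11, -1.91 and -1.90 in sg/sg liver, against -0.88, -1.35, -1.38, -1.34 and -1.48 in WT liver. There the sg/sg arrays were all below the WT arrays (-0.60, adjusted p = 0.0158), and the WAT effect exceeded the liver effect by 1.19 ± 0.16 (adjusted p = 7.18e-05). The second Hic2 probe, A_52_P623457, rose in WAT by 0.59 and was at -0.37 in liver, not called, with a difference of 0.96 ± 0.16 (adjusted p = 0.000411). The slide limit on the liver result applies to all liver values of genes under other names. The alternative runs did not cover these genes.

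Zbtb44, listed as Btbd15, showed the same opposition on its probe A_51_P303000. It read -0.56, -0.42, -0.27, 0.079 and -0.42 in sg/sg WAT, against -0.86, -1.01, -0.80, -0.73 and -0.73 in WT WAT. All sg/sg WAT arrays were higher (0.51, adjusted p = 0.0203). In liver it read 0.51, 0.92, 0.65, 0.71 and 0.54 in sg/sg liver, against 0.87, 0.99, 1.26, 1.08 and 1.19 in WT liver. It fell there by 0.41 (adjusted p = 0.0289) with slight overlap, and the difference between the effects was 0.92 ± 0.16 (adjusted p = 0.000714). Zbtb43, listed as Zfp297b, rose in WAT on both probes by 0.50 and 0.43, while Zbtb18 (Zfp238) and Zbtb45 (Zfp499) rose in liver by 0.50 and 0.76. Zbtb45 had a difference of -0.78 ± 0.21 (adjusted p = 0.0144), and Zbtb18 one of -0.31 ± 0.26 that was not called.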
